A study of Mus musculus with 15 samples.

Results

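Primary mouse alveolar type II (ATII) cells were compared with primary mouse lung fibroblasts, both after 24 h with 1 mM β-aminopropionitrile (BAPN). The comparison took the arrays that the labels give as BAPN-treated and no others. These were 4 arrays of ATII cells and 3 arrays of fibroblasts, 7 of the 15 arrays of the study. The ATII arrays carry replicate numbers 1, 3 and 4, and a replacement array without a number is called replicate 5 here. The fibroblast arrays carry numbers 1, 2 and 4. The other 8 arrays were vehicle-treated (phosphate-buffered saline), 4 of ATII cells and 4 of fibroblasts, and were used only to set the same cell type difference beside. ATII cells had spent 3 days at an air-liquid interface and had formed a monolayer, whereas fibroblasts had gone through 3 or more passages and 24 h of starvation. Cell type and culture history therefore cannot be told apart in any value below. Strain, age and genotype of the mice are not given in the labels used here, nor is it said whether replicates were separate animals or cultures. P-values therefore reflect sample-to-sample spread alone, and that spread may be technical.

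ATII cells line the alveolus, make and recycle surfactant, and can give rise to the flat alveolar type I cells of the gas exchange surface. Lung fibroblasts lie beneath that epithelium, lay down collagen and elastic fibres, and send growth factors such as FGF10 and HGF to the epithelium above them. BAPN blocks the lysyl oxidases, a family of secreted enzymes that oxidise lysine residues of collagen and elastin so that fibres can be cross-linked.

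Each array carried 59305 spots that are not controls, and 65.2% to 71.2% of them were well above background. No spot was saturated, and repeat spots of a sequence had a median coefficient of variation of 5.37% to 9.64%. A level below is the log2 processed intensity of a gene minus the 75th percentile of its array, so that 0 is that percentile and levels of different genes are not compared. The arrays lay on 2 slides. Replicates 1, 3 and 5 of the ATII cells and replicate 1 of the fibroblasts were on slide 1, and ATII replicate 4 and fibroblast replicates 2 and 4 were on slide 2. The first principal component of the 7 arrays held 64.5% of the variance and parted the cell types. The second held 16.2% and parted the slides. Correlations across genes were 0.976 to 0.992 between ATII arrays, 0.976 to 0.986 between fibroblast arrays, and 0.929 to 0.954 between arrays of different cell types.

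The 4 genes that mark the cell types were read by 60-base array sequences, of which the opening 30 bases are shown because these values identify the samples. The Cdh1 sequence lies on the plus strand of mm9 at chr8:109193812-109193871, and the Epcam sequence spans chr17:88048972-88049800 on the plus strand. The Sftpc sequence spans chr14:70920899-70921159 on the minus strand, and the Fgf10 sequence lies at chr13:119580365-119580424 on the plus strand. The Epcam and Sftpc spans are 829 and 261 bases long, so these sequences cross at least one splice junction. All bases are in lower case because no motif is marked.
Cdh1: acattctaacgggaaaaaggagacaagacc
Epcam: aaatcagcaaaatatgagaaggctgagata
Sftpc: ggagagctaccactctactatatctagcat
Fgf10: acagcaaatagtgcagacgttggattctta

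The labels and the markers went together on all 7 arrays. Cdh1 is the gene of E-cadherin, the adhesion protein of epithelial junctions. It had levels of 4.64, 4.06, 3.71 and 3.95 in ATII cells, against −7.49, −7.92 and −7.43 in fibroblasts. Fibroblast signals of Cdh1 were not well above background on any array, so the difference is a bound, at least 1034-fold higher in ATII cells (means 4.09 ± 0.40, SD, n = 4, and −7.62 ± 0.27, SD, n = 3; limma, adjusted p = 5.41e-12). Here and below, a bound sets the mean of the brighter group against a mean over the arrays of the dimmer group. For each of those arrays it takes whichever is higher, the lowest level called well above background there or the gene's own level. The adjusted p was 0.00437 or lower for every gene given with one. Epcam, another epithelial surface adhesion molecule, had levels of 2.92, 2.69, 2.43 and 2.35 in ATII cells and −7.50, −7.65 and −7.25 in fibroblasts, a difference of at least 367.5-fold (adjusted p = 7.5e-09). The groups were far apart for both genes.

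Sftpc encodes surfactant protein C, which in the lung is made by ATII cells. Its levels were 1.47, 2.12, 0.22 and 0.56 in ATII cells, against −7.01, −6.17 and −5.32 in fibroblasts, where 1 of 3 arrays was well above background (log2 change 7.26 ± 0.51, SE; adjusted p = 2.19e-07). The ATII arrays differed among themselves more for Sftpc (SD 0.86) than for Cdh1 or Epcam, and the difference was 8.40 on slide 1 and 5.96 on slide 2. Fgf10, the mesenchymal growth factor, ran the other way, with −4.96, −5.83, −5.94 and −4.91 in ATII cells and −0.60, 0.64 and −0.39 in fibroblasts (log2 change −5.29 ± 0.47, SE; adjusted p = 2.11e-06). It was well above background on 2 of 4 ATII arrays and on all fibroblast arrays. In RNA from a whole culture, fewer cells of a type and less RNA per cell cannot be told apart.

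**Figure D1:**
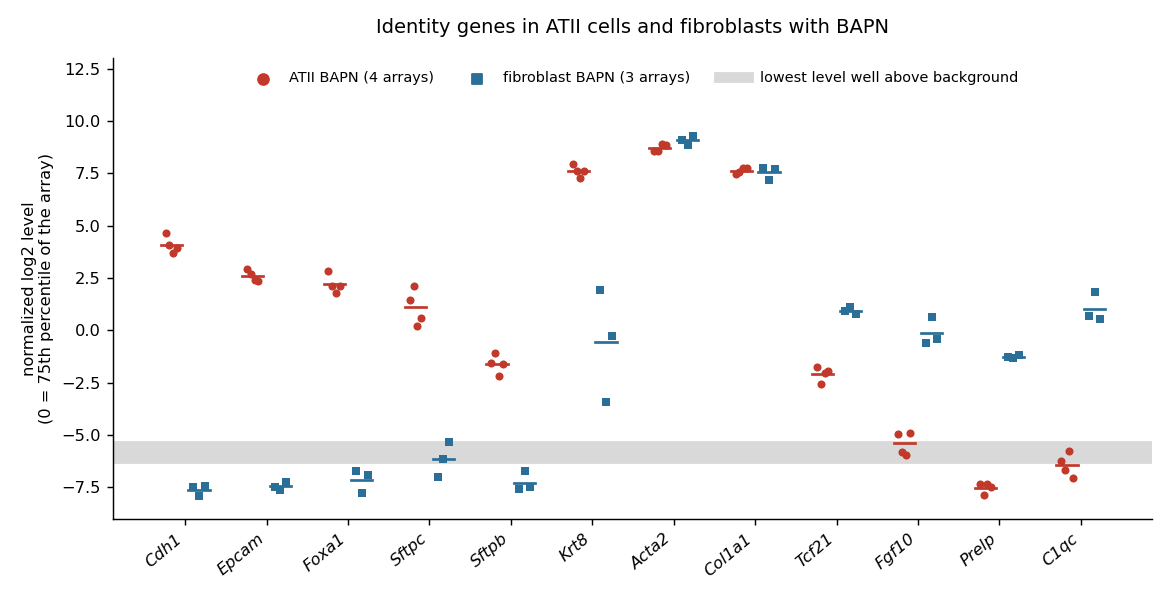
Normalized log2 level (vertical axis) of 12 identity genes on each ATII BAPN array (circles, left of each pair) and each fibroblast BAPN array (squares, right), with lines at the group means and a grey band from the lowest to the highest detection limit of the 7 arrays. Cdh1 and Epcam lie above 2 in every ATII sample and below the band in every fibroblast sample, whereas the levels of Acta2 and Col1a1 meet.

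Across the array, 32264 features (genes, or array sequences without a gene name here) were well above background on at least 3 of the 7 arrays and were tested. A feature is called when its limma p, adjusted by the Benjamini-Hochberg method over all of them, is under 0.05. This held for 9497 features, 29.4% of those tested, with 4267 higher (13.2%) and 5230 lower (16.2%) in ATII cells. The median log2 change over all tested features was 0.0046. Large changes were more often upward: 263 calls were higher and 106 lower by 4 or more on the log2 scale, and 79 were higher and 22 lower by 6 or more. Of features seen in only one cell type, 231 were well above background on all 4 ATII arrays and on no fibroblast array, and 350 on all 3 fibroblast arrays and on no ATII array. These counts rest on unlike numbers of arrays and are not compared, and such features pass the filter through one cell type alone. Groups did not overlap for 34.1% of the features tested. Slide 1 alone gave 7877 calls, and slide 2 alone, with 1 ATII and 2 fibroblast arrays with BAPN, gave 2583. Of the 167 called genes picked by the naming rule, 16 were not called on slide 1 alone and 47 not on slide 2 alone. Among these, Hmox1, Usp18, Mki67, Rrm2, Xbp1 and Gli1 were not called on either slide alone. The same held for Egfl7, Kdr, Dhh, Pfkp, Aldoc, Uqcrfs1 and Uqcrc2, which are not discussed below. Of the genes discussed below, slide 2 alone also lost the calls of Krt8, Krt18, Msln, Muc16, Tbx20, Loxl2, Bpifa1, Dpt, Dcn, Hhip and Itga4. It lost those of Mmp3, Cxcl5, Cxcl10, Ddit4, Eln, Cdk1, Birc5, H2-Eb1, Mis18a and Lox as well. Loxl4 was not called on slide 1 alone.

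Cell-cell adhesion genes and keratins made up the strongest block of ATII expression. Of 35 tested members of a list of epithelial junction, keratin and surface protease genes, 32 were higher in ATII cells and 3 were not called, with a median log2 change of 4.94. Among the 17741 tested genes with a symbol, 17.5% were called higher and 19.2% lower, 36.7% in all, against 20.5% of the features without one, and counts of listed genes stand beside these shares. Krt7, Krt8 and Krt18 encode the keratins of simple epithelia. Krt7 had levels of 6.56, 5.83, 5.04 and 5.69 in ATII cells and −0.76, −4.89 and −2.39 in fibroblasts (352-fold higher, log2 change 8.46 ± 0.94, SE; adjusted p = 1.54e-05). Krt8 had 7.97, 7.60, 7.29 and 7.61 in ATII cells, against 1.95, −3.42 and −0.26 in fibroblasts (292.5-fold, adjusted p = 0.000212). Krt18 was 162-fold higher (adjusted p = 0.000343). On slide 1 alone the log2 change of Krt8 was 5.78 and on slide 2 alone 9.13. For these 3 keratins the ATII arrays were close together and the fibroblast arrays widely spread.

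The tight junction claudins Cldn3 and Cldn4 were 171-fold and 141-fold higher in ATII cells. For Cldn4 the log2 change was 7.14 by the sequence used, 11.24 by the other, and 4.87 with vehicle. Lsr encodes a protein of junctions where 3 cells meet. Its levels were 5.41, 4.62, 4.61 and 4.82 in ATII cells and −1.99, −3.58 and −3.81 in fibroblasts (254-fold higher, adjusted p = 1.45e-08), again with no overlap. Lamb3, the laminin chain of hemidesmosome anchoring, was 165-fold higher, and Krt17, a keratin of basal and injured epithelia, 167-fold higher. Among genes not well above background in any fibroblast sample, Wfdc2, a secreted epithelial protein gene, was the farthest apart at 1654-fold or more (4.77 ± 0.65, SD, n = 4, against −7.44 ± 0.10, SD, n = 3). Mal2, a gene of apical membrane traffic, was at least 595-fold higher, Ripk4, an epidermal differentiation kinase gene, at least 339-fold, and Ctse, which encodes an aspartic protease, at least 324-fold.

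Promoter sequences were read for these genes because the letters CACCTG are the core of the E-box that the epithelial repressors of the SNAI and ZEB families bind, and 4 are shown. Each is the 250 bases before the annotated start in RefSeq (build GRCm38.p6), 5′ to 3′ on the strand of the gene, with capitals for CACCTG or its complement CAGGTG. The positions are chr17:87635729-87635978 (Epcam, plus strand), chr15:101412153-101412402 (Krt7, plus), chr15:102004343-102004592 (Krt8, minus) and chr7:30973470-30973719 (Lsr, minus).
Epcam: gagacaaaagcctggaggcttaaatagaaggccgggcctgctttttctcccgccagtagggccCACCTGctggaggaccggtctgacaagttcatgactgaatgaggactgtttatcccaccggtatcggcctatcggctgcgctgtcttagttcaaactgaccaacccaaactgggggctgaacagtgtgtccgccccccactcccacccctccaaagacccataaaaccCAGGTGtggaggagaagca
Krt7: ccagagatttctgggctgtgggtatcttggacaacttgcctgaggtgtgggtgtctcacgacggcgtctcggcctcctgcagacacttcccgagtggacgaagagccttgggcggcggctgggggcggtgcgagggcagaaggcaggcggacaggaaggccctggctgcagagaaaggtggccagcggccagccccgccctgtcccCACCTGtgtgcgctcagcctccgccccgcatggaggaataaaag
Krt8: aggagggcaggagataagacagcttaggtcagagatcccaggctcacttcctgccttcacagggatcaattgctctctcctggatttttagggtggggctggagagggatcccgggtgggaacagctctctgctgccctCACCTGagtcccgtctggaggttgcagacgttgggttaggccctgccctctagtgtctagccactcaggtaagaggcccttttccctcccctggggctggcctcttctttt
Lsr: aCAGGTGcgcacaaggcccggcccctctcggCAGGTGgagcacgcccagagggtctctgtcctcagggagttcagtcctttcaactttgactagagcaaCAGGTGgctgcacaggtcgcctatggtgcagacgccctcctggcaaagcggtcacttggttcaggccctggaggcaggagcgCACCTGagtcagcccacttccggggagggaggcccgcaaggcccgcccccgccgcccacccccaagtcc

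These stretches hold 2, 1, 1 and 4 matches, in the order printed. Over windows of 300 bases (250 before to 50 after the start), CACCTG on either strand occurred in 22.1% of the 13869 tested genes with a promoter in the table. The share was 28.6% of 2380 genes called higher and 18.8% of 2702 called lower in ATII cells. Among genes higher by 4 or more on the log2 scale it was 49.4% of 174, and among genes lower by as much it was 15 of 75 genes. Of the 20 called adhesion and keratin genes with a promoter, 16 held it. The median share of G and C bases was 59.5% in the windows of the 174 genes and 58.7% in those of all tested genes. In the windows of the 75 lower genes it was 51.3%, so base composition was not alike in the sets compared. Across all 32851 windows of the table, 20.2% held the letters. The grainyhead letters AACCGGTT occurred in 3 of the 2380 genes called higher (0.126%, against 0.245% of all tested genes), and the forkhead letters TGTTTAC in 3.53% against 3.35%, on either strand. These are matches of letters and were not tested.

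The transcription factors that keep epithelial identity followed the same split. Of 24 tested, 15 were higher and 2 lower in ATII cells, with a median log2 change of 1.66 (1.35 with factors seen in one cell type set at their bound). Foxa1, a forkhead factor of lung endoderm, had levels of 2.84, 2.12, 1.79 and 2.11 in ATII cells and −6.74, −7.77 and −6.92 in fibroblasts, at least 282-fold higher. Grhl2, which switches on junction genes, was at least 88.1-fold higher, and its other array sequence gave a log2 change of 3.45. Nkx2-1, the lung lineage factor that drives surfactant genes, was at least 19.5-fold higher (−1.64 ± 0.16, SD, n = 4, against −7.68 ± 0.23, SD, n = 3; adjusted p = 3.21e-11). Elf3, an ETS factor of epithelia, was at least 20.05-fold higher, and Sox2, a factor of conducting airway epithelium, at least 19.9-fold. None of the 5 was flagged well above background on any fibroblast array. Foxp2, a forkhead repressor of distal lung, and Ovol2, a zinc finger factor of epithelia, are also on this list and were lower in ATII cells, Foxp2 by at least 3.88-fold and Ovol2 by a log2 change of −0.39.

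Mesenchymal transcription factors were lower less uniformly. Of 21 tested, 11 were lower and 3 higher, with a median log2 change of −0.58. Prrx1, a homeobox factor of mesenchyme, had levels of 0.30, −0.09, 0.49 and 0.26 in ATII cells and 3.76, 3.72 and 3.46 in fibroblasts (10.6-fold lower, adjusted p = 1.77e-08). Prrx2 was 8.13-fold lower. The repressors Zeb1 and Zeb2 were lower by little (log2 changes −0.58 and −0.48), Snai1 by −0.88, and Snai2 was not called (−0.63). Meox1, a mesodermal homeobox gene, and Heyl, a Notch target gene of vascular mural cells, ran against the list and were higher in ATII cells by log2 changes of 5.24 and 3.35. Meox1 was well above background on 1 of 3 fibroblast arrays.

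Genes of the surfactant cell itself were uneven. Of 20 tested ATII markers, 8 were higher, 6 lower and 6 not called, with a median log2 change of 0.43. The summed level of the list was 6.21 to 6.58 in ATII samples and 6.45 to 6.71 in fibroblast samples. Beside Sftpc, Sftpb, which encodes surfactant protein B, had at least a 19.9-fold higher level in ATII cells (−1.58, −1.09, −2.19 and −1.59, against −7.61, −6.73 and −7.50 in fibroblasts). A second array sequence of Sftpb gave a change of 0.28 on the log2 scale, so its sequences disagree. Sftpd (log2 change 3.58) and Napsa (2.79) were higher too. Abca3 (0.33, adjusted p = 0.224) and Lamp3 (0.27, adjusted p = 0.0578), genes of the lamellar body, were not called, and the phosphate transporter gene Slc34a2 was not well above background on any of the 7 arrays. Lyz1 and Lyz2, lysozyme genes that ATII cells share with macrophages, were 15.01-fold and 19.6-fold lower in ATII cells.

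Type I, transitional and airway epithelial markers were also present in the ATII cultures. Of 17 tested type I markers, 9 were higher and 2 lower (median 1.40), and the summed level was 8.25 to 8.66 in ATII samples and 8.18 to 8.66 in fibroblast samples. Aqp5, a water channel gene, was 24.7-fold higher (2.67 ± 0.25, SD, n = 4, against −1.96 ± 0.58, SD, n = 3), and Cldn18 and Col4a3 were at least 12.6-fold and 13.4-fold higher. Igfbp2, which marks mature type I cells but is also made by mesenchyme, was 94.4-fold lower in ATII cells (adjusted p = 4.24e-09). Of 17 transitional markers, which keratin-rich cells between type II and type I express, 12 were higher and 2 lower (median 2.09), among them Itgb6, with 3.51, 2.51, 1.91 and 2.62 in ATII cells and −6.37, −3.44 and −4.71 in fibroblasts (log2 change 7.48), where 2 of 3 arrays were well above background. Krt7, Krt8, Krt18, Krt19 and Cldn4 stand on this list and on the adhesion list, so the 2 counts are not separate.

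Of 14 airway markers, 9 were higher and 5 not called (median 1.70). Scgb1a1, the secretoglobin of club cells, had levels of 3.70, 1.93, 0.91 and 1.56 in ATII cells and −2.89, −2.69 and −2.77 in fibroblasts. Foxj1, the ciliated cell factor, was at least 43.8-fold higher, and Bpifa1, a secreted airway protein gene, at least 8.75-fold, with −0.72 in ATII replicate 1 and −2.06, −5.12 and −3.28 in the others. Scgb1a1, Foxj1 and Bpifa1 were highest in ATII replicate 1, and the summed level of the airway list was 4.49 there and 3.09 to 3.52 in the other ATII samples, against 2.31 to 2.88 in fibroblasts. Of the basal cell genes, the keratin gene Krt14 showed a log2 change of 3.01 (adjusted p = 4.82e-06), higher in ATII cells and detected on all 7 arrays, whereas Krt5 (log2 change 0.81) and Trp63 (−0.39) were not called.

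Mesothelial genes, markers of the cells that cover the lung surface, moved with both cell type and single cultures. Of 9 tested, 4 were higher in ATII cells (Msln, Muc16, Rspo1 and Aldh1a2) and 5 were not called, with a median log2 change of 3.17. The summed level of the list was 7.48 to 7.70 in ATII samples and 4.20 to 5.38 in fibroblast samples. Such a sum is dominated by the members of largest signal, in ATII samples Msln and Aldh1a2. Msln, which encodes mesothelin, had levels of 7.16, 6.45, 6.04 and 6.36 in ATII cells and 2.64, −1.70 and 1.12 in fibroblasts (56.4-fold higher, adjusted p = 0.000459). Wt1, the mesothelial transcription factor, had 3.104, 4.11, 4.30 and 3.99 in ATII cells and 3.00, −4.04 and 1.62 in fibroblasts, and was not called (log2 change 3.68, adjusted p = 0.108). Fibroblast replicate 2 was the lowest fibroblast array for both genes.

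That array stood apart from the other fibroblast arrays for a whole group of genes. The surface protein gene Upk3b had levels of 1.22 and 0.91 in fibroblast replicates 1 and 4 and −4.61 in replicate 2, and Bnc1, a mesothelial transcription factor gene, had −0.41 and −0.93 there and −7.85 in replicate 2, below background. Krt7, Krt8 and Krt18 were lowest in the same array, as given above for Krt7 and Krt8, with 3.48, −1.58 and 1.89 for Krt18 in replicates 1, 2 and 4. Krt19 (1.09, 1.60 and 1.63) and the retinoic acid synthesis gene Aldh1a2 (4.22, 4.14 and 3.85) were not low there. The same was seen among vehicle-treated fibroblasts, where replicate 2 had −4.42 for Wt1, −4.54 for Upk3b and −4.29 for Krt8, and the others had 1.09 to 2.49, −0.90 to 1.42 and −0.69 to 1.53. Of 17741 tested genes with a symbol, 83 were lower in fibroblast BAPN replicate 2 than in both other fibroblast BAPN arrays by 2 or more log2 units, and 33 were higher. Fibroblast replicate 1 had 43 genes lower and 90 higher by this measure, and replicate 4 had 9 lower and 28 higher. Without replicate 2 the log2 change of Krt8 was 6.77, that of Krt7 7.36, that of Krt18 5.92 (against 7.34 with it) and that of Msln 4.62, all still called. Muc16 (2.74), Rspo1 (4.44) and Aldh1a2 (1.89) stayed called too. That of Wt1 was 1.57 without replicate 2 and 5.09 without fibroblast replicate 1, which brought it past the threshold (adjusted p = 0.0406). Upk3b, Upk1b, Lrrn4 and Bnc1, not called in either fit, had −1.95, 0.14, 0.48 and 0.78 without replicate 2. With that array their log2 changes were −0.05, 1.62, 2.09 and 3.17. Levels of Upk3b in ATII cells were −1.08, −0.025, −1.58 and −0.84, below those of fibroblast replicates 1 and 4. Whether mesothelial cells take part in the keratin differences was not tested.

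**Figure D2:**
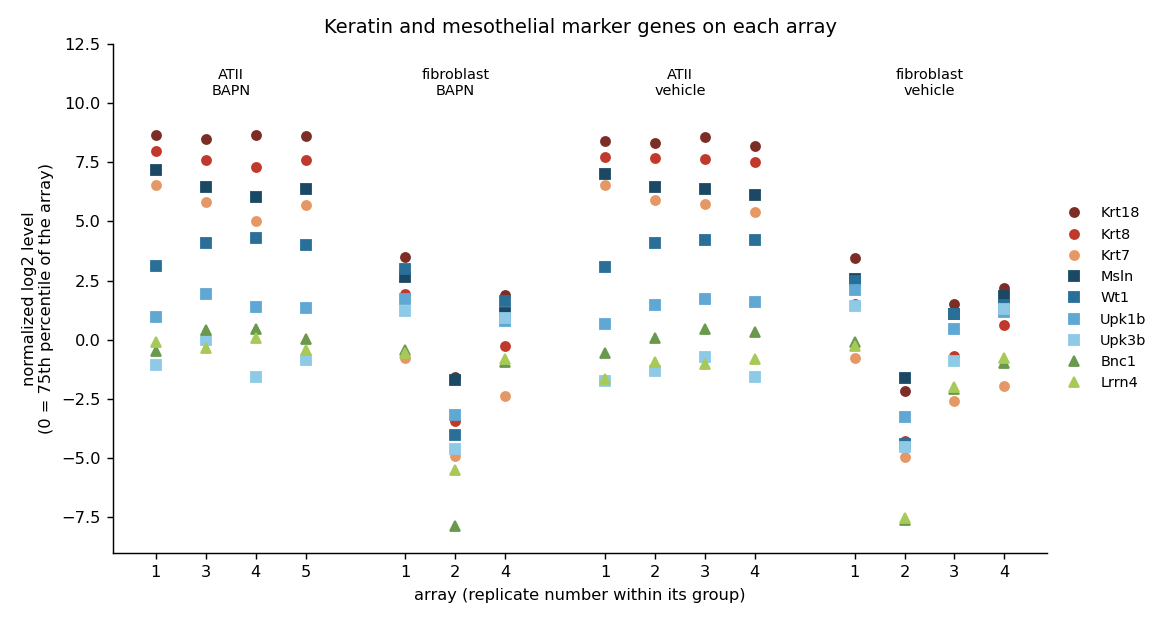
Normalized log2 level (vertical axis) of 3 keratin genes (circles) and 6 mesothelial markers (squares and triangles) on each of the 15 arrays, ordered by group and replicate number. In fibroblasts, replicate 2 lies lowest for all 9 genes with BAPN and with vehicle, while in ATII cells the 3 keratins and Msln stay above 5 on every array.

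For other genes given here with several array sequences, these also differed by more than 1 log2 unit. The changes ran over 10.55 to 12.20 for Wfdc2, −6.17 to −4.31 for Tbx20, 6.35 to 7.48 for Itgb6, −2.86 to −1.76 for Col14a1, 1.75 to 3.41 for Col4a4 and 3.33 to 4.39 for Itgb3, with one direction within each gene.

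Fibroblast surface and matrix genes were lower in ATII cells in the main. Of 28 tested fibroblast markers, 17 were lower, 1 higher and 10 not called (median log2 change −0.95), and the summed level of the list was 10.43 to 10.93 in ATII samples and 11.17 to 11.42 in fibroblast samples. S100a4, a calcium-binding protein gene of fibroblasts and macrophages, had levels of 2.57, 2.79, 2.52 and 2.55 in ATII cells and 8.12, 7.99 and 8.16 in fibroblasts (44.8-fold lower, adjusted p = 3.21e-11). Tcf21, the factor of lipid-bearing lung fibroblasts, was 8.05-fold lower, Pdgfra 3.89-fold lower, and Dpt, the dermatopontin gene, at least 5.62-fold lower. Thy1, a surface marker of fibroblasts, was 6.65-fold lower. These genes separated the groups on all 7 arrays.

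The main type I collagen genes Col1a1 and Col1a2 were not called. Col1a1 had levels of 7.48, 7.56, 7.75 and 7.76 in ATII cells and 7.78, 7.21 and 7.72 in fibroblasts (log2 change 0.07 ± 0.17, SE; adjusted p = 0.827). Acta2, smooth muscle actin, had 8.56, 8.56, 8.92 and 8.85 in ATII cells and 9.09, 8.88 and 9.31 in fibroblasts (−0.37 ± 0.15, SE; adjusted p = 0.0839), and Tagln was not called (0.14 ± 0.17, SE). Both cultures thus gave RNA of these mesenchymal genes, which the label of the ATII samples does not name. The part of mesenchymal cells in the ATII cultures was not tested. Mature smooth muscle genes were lower in ATII cells: Myh11, smooth muscle myosin, by 6.08-fold and Lmod1, a thin filament protein gene, by 15.8-fold. Of the 14 tested genes of that list, 7 were lower and 2 higher (median −0.47), and Des (desmin) and Hhip were the higher ones.

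Beside Igfbp2, the largest falls among genes seen on all 7 arrays included the following. Ccn5, a matricellular protein gene, had levels of −2.40, −2.82, −2.89 and −2.80 in ATII cells and 4.95, 5.20 and 5.54 in fibroblasts (249-fold lower, log2 change −7.96 ± 0.23, SE; adjusted p = 1.38e-10). The chloride channel accessory genes Clca3a1 and Clca3a2 were 247-fold and 175-fold lower, and because they are near-identical neighbours in one family, their signals may be shared. Alkal1, a receptor tyrosine kinase ligand gene, was 229-fold lower, Prl2c5, a prolactin family gene, 88.6-fold, Nrn1 (neuritin) 69.2-fold and Ramp3, which modifies the calcitonin receptor family, 64.7-fold. Among genes not well above background in any ATII sample, C4bp, a complement inhibitor gene, was at least 61.6-fold lower, Ecrg4 at least 60.6-fold, the carboxypeptidase gene Cpa6 at least 32.2-fold and the protease inhibitor gene Serpina3n at least 27.5-fold. Tbx20, a T-box factor gene, was at least 20.9-fold lower, with 0.20, −4.79 and 0.93 in fibroblasts, again lowest in replicate 2 (measured log2 change −6.17, and −7.96 without that array).

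The lysyl oxidases, the enzymes BAPN inhibits, differed member by member. Loxl2 had levels of 6.89, 7.08, 7.55 and 7.18 in ATII cells and 5.84, 4.32 and 5.63 in fibroblasts (3.76-fold higher, log2 change 1.91 ± 0.40, SE; adjusted p = 0.00274). Loxl3 had 0.43, 0.23, 0.50 and 0.39 in ATII cells and 2.54, 2.49 and 2.36 in fibroblasts (4.21-fold lower, adjusted p = 3.34e-08). Neither gene had overlapping groups.

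Lox, the founding member, had 3.84, 3.97, 3.87 and 3.64 in ATII cells and 4.83, 4.12 and 4.36 in fibroblasts (log2 change −0.60 ± 0.16, SE; adjusted p = 0.0115). The fall of Lox was −1.01 on slide 1 and −0.37 on slide 2, where it was not called, nor was it called with the mean of all array sequences of the gene (−0.43, adjusted p = 0.0516) or with the 7 BAPN arrays fitted alone (−0.60, adjusted p = 0.0643). Loxl4 was lower by 0.82 and lost its call without fibroblast replicate 2 (−0.70, adjusted p = 0.0577) and with the replicate number as a block (−0.67, adjusted p = 0.103). Loxl1 was not called, with 5.20, 5.39, 5.40 and 5.35 in ATII cells and 5.34, 5.54 and 5.54 in fibroblasts (−0.14 ± 0.16, SE). In vehicle the changes were 1.61 for Loxl2, −1.87 for Loxl3, −0.37 for Lox, −0.96 for Loxl4 and −0.46 for Loxl1.

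Other matrix genes differed in both directions. Of 17 fibrillar and associated collagens, 4 were higher and 5 lower in ATII cells (median −0.16). Col5a3, a minor fibril collagen, had levels of 4.89, 5.01, 5.38 and 5.05 in ATII cells and 0.89, 1.28 and 1.02 in fibroblasts (16.2-fold higher), Col8a2 was 22.99-fold (log2 change 4.52, and 1.26 by its other array sequence) and Col15a1 4.08-fold higher, and Col14a1 was 7.26-fold lower. Of 18 genes that hydroxylate, fold, secrete or process collagen, 1 was higher and 4 lower. Together this was a smaller share than the 36.7% called among genes with a symbol, while the share lower was above their 19.2%. Of 15 elastic fibre genes, 8 were lower and 2 higher (median −0.39): Efemp1, a fibulin gene, was 10.9-fold lower, and Eln, elastin itself, was higher by 1.93 with −0.22, 1.45, 1.10 and 1.19 in ATII cells and −1.77, 0.39 and −1.77 in fibroblasts. The groups overlapped for Eln, and its call was lost without ATII replicate 3 (1.74, adjusted p = 0.0612), without ATII replicate 5, or without fibroblast replicate 1 or 4.

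Small leucine-rich proteoglycans, which coat collagen fibrils, were the most one-sided matrix group. Of 7 tested, 6 were lower and 1 higher in ATII cells (median −1.91). Prelp was at least 20.3-fold lower (−7.52 ± 0.23, SD, n = 4, against −1.26 ± 0.06, SD, n = 3), Fmod (fibromodulin) 12.3-fold and Dcn (decorin) 3.77-fold lower, and Ogn (osteoglycin) was 3.26-fold higher. The remaining 4 listed genes were well above background on fewer than 3 arrays.

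In the basement membrane list 7 of 23 genes were higher and 7 lower. The chains of epithelial basement membranes Lamb3, Lama3 (log2 change 2.76), Col4a4 (2.94) and Col7a1 (2.91) were higher, and Nid2 (−3.05), Lama2 (−1.66) and Lamb2 (−1.42), which mesenchyme contributes, were lower. Of 18 integrins, 8 were higher and 4 lower. Itgb3 had levels of 5.05, 5.07, 5.08 and 5.01 in ATII cells and 0.90, 0.43 and 0.65 in fibroblasts (20.9-fold higher), and Itgb4, which anchors epithelium to laminin, was 30.4-fold higher. Itga4 and Itga8, partners of the β1 chain in mesenchymal and blood cells, were 15.4-fold and 12.48-fold lower. Of 20 matrix proteases and inhibitors, 4 were higher and 8 lower, with Mmp9, a gelatinase gene, at least 113-fold higher (0.48, 0.90, 1.25 and 0.95, against −7.51, −7.45 and −6.83 in fibroblasts) and Mmp3, stromelysin, 8.26-fold lower.

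Growth factor genes differed in both directions. Of 15 FGF ligands and receptors, 5 were higher and 4 lower, and of 12 PDGF, HGF and KIT pathway genes, 3 were higher and 7 lower. Beside Fgf10, the related epithelial growth factor gene Fgf7 had levels of 0.88, 0.42, 0.95 and 0.89 in ATII cells and 4.53, 4.85 and 4.14 in fibroblasts (13.2-fold lower in ATII cells, adjusted p = 8.83e-08). Hgf had −3.94, −4.51, −3.45 and −3.88 in ATII cells and −0.31, −0.34 and −0.37 in fibroblasts (12.2-fold lower). Fgfr2, the receptor gene of both FGF ligands, was 1.94-fold lower in ATII cells, and Met, the HGF receptor gene, was not called (0.25 ± 0.15, SE). The groups did not overlap for Fgf7, Hgf and Fgfr2.

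Pdgfa, Pdgfb and Pdgfc, PDGF ligand genes whose products act on mesenchymal cells, were higher in ATII cells. The ligand gene Pdgfd was tested as well and was not called higher. Pdgfb had levels of 5.54, 4.75, 4.42 and 4.92 in ATII cells and −1.85, −1.70 and −1.93 in fibroblasts (106.6-fold higher, adjusted p = 1.05e-09), Pdgfc was 7.31-fold and Pdgfa 2.42-fold higher. Their receptor genes Pdgfra and Pdgfrb were lower in ATII cells (log2 changes −1.96 and −1.28). Fgf21, a stress-induced endocrine FGF gene, was at least 167-fold higher. In the EGF family, 5 of 13 were higher and 2 lower: the ligand genes Hbegf and Nrg1 were 4.25-fold and 6.59-fold higher and the ligand gene Ereg 9.01-fold lower.

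Wnt7a, Wnt7b, Wnt10a and Wnt11, which encode secreted Wnt ligands, and Shh, through which epithelium signals to mesenchyme, were higher in ATII cells. Of 24 tested Wnt pathway genes, 13 were higher and 4 lower (median 0.61). Wnt11 had levels of 3.17, 2.75, 2.29 and 2.60 in ATII cells and −2.13, −1.90 and −2.26 in fibroblasts (27.9-fold higher), Wnt7a was 27.8-fold, Wnt10a 26.7-fold and Wnt7b 11.2-fold higher, and the Wnt antagonist gene Sfrp1 was 10.8-fold lower. Shh was at least 12.1-fold higher (−2.32 ± 0.69, SD, n = 4, against −7.70 ± 0.29, SD, n = 3). Its target genes Ptch1 (log2 change 1.019) and Hhip (2.61) were higher in ATII cells as well. Of 11 hedgehog pathway genes, 5 were higher and 1 lower. Gli1, the target that is itself a factor of the pathway, was called higher (1.90, with 1 of 3 fibroblast arrays well above background), but not without fibroblast replicate 1 (1.82, adjusted p = 0.0539) or 4 (1.66, adjusted p = 0.081). In the BMP and TGF-beta list 9 of 24 were higher and 7 lower: the ligand gene Bmp7 was at least 20.96-fold higher and Bmp4 7.33-fold lower in ATII cells, and Tgfb1 and Tgfb2 were 3.41-fold higher each.

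**Figure D3:**
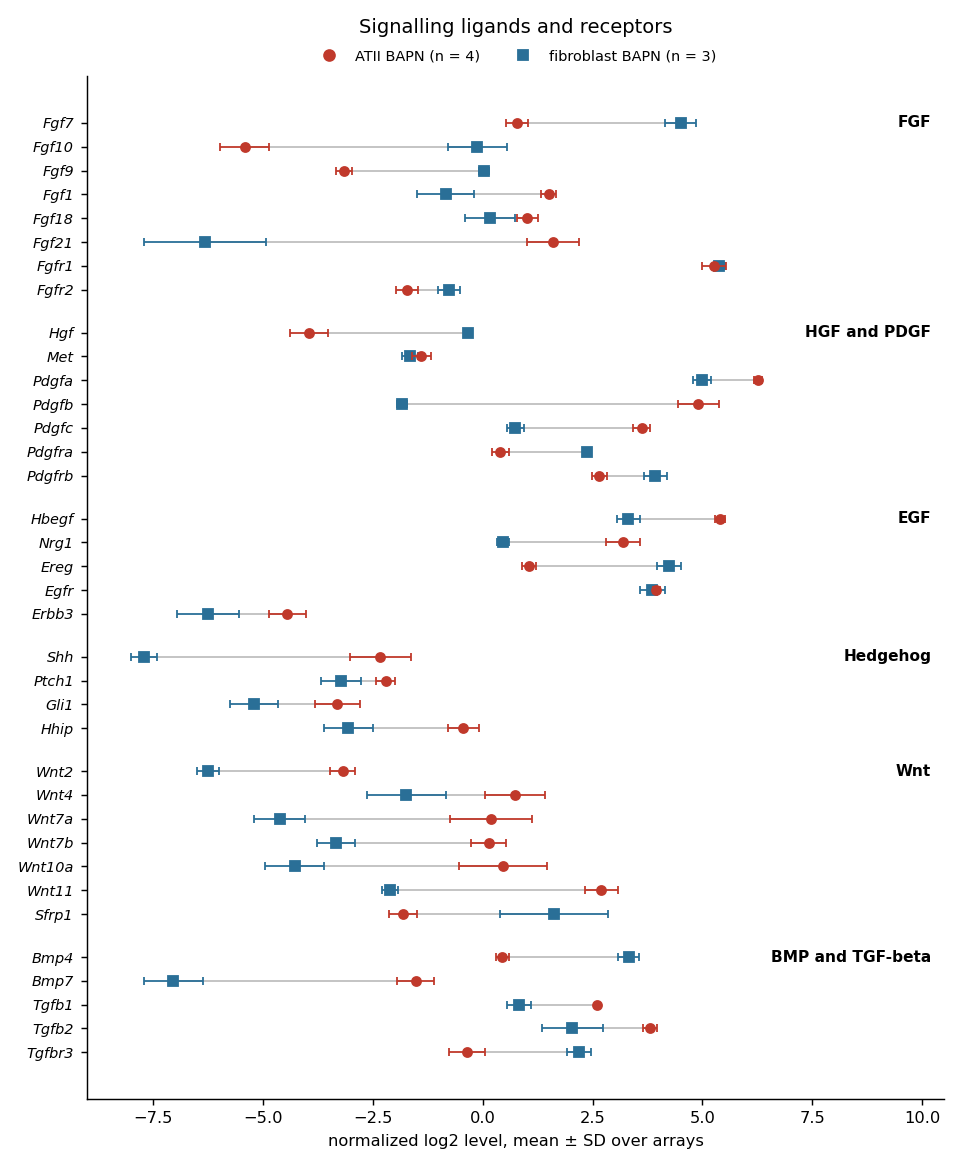
Mean normalized log2 level (horizontal axis, bars ± SD) of ligand and receptor genes in ATII BAPN samples (circles, n = 4) and fibroblast BAPN samples (squares, n = 3), grouped by pathway. Fgf7, Fgf10 and Hgf sit far to the right in fibroblasts, and Pdgfb, Fgf21, Shh, Wnt7a, Wnt7b, Wnt10a and Wnt11 in ATII cells.

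Macrophage and leukocyte genes were lower in ATII cultures. Of 23 tested, 17 were lower and 2 higher (Cd14 and Cd3e), with a median log2 change of −2.04, and the summed level of the list was 5.16 to 5.45 in ATII samples and 6.53 to 6.81 in fibroblast samples. C1qc, a chain of complement C1q made by macrophages, had levels of −6.26, −6.70, −5.79 and −7.04 in ATII cells and 0.68, 1.81 and 0.52 in fibroblasts, at least 97.2-fold lower. Ms4a7, another macrophage gene, was at least 73.5-fold lower. The lymphocyte genes Cd79a and Nkg7 were not called, and the neutrophil gene S100a9 was below background throughout. S100a8, on the same list, was lower in ATII cells (log2 change −4.97, limma, adjusted p = 9.5e-05), and with vehicle its change was −5.95. With BAPN it was well above background on 1 ATII array and on all 3 fibroblast arrays. Endothelial markers gave 3 of 9 higher and 1 lower (median 0.21). The part of macrophages in the fibroblast cultures in other differences, such as those of Lyz1, Lyz2 and Mmp genes, was not tested. The complement list, which shares the C1q genes, had 9 of 16 lower and 1 higher (median −1.29).

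Chemokine genes went both ways, with 4 of 16 higher and 7 lower. Cxcl5, which attracts neutrophils, was 36.7-fold lower in ATII cells (−2.25, −2.60, −3.24 and −2.69, against 3.16, 0.21 and 4.14 in fibroblasts). Its log2 change was −5.20, and −6.34 without fibroblast replicate 2. Cxcl10, an interferon-induced chemokine gene, was 29.5-fold higher, with 3.51, 1.87, 0.54 and 1.80 in ATII cells and −2.77, −3.06 and −3.01 in fibroblasts. Interferon-stimulated genes gave 5 of 21 higher and 2 lower (median 0.15): Oasl1 was 17.7-fold and Usp18 6.86-fold higher, and Ifit2 4.32-fold lower. In antigen presentation, 7 of 15 were higher and 3 lower. Cd74, the invariant chain that ATII cells carry with MHC class II, had levels of 1.71, 1.71, 0.27 and 1.30 in ATII cells and −4.37, −3.13 and −2.98 in fibroblasts (26.7-fold higher), and the class II genes H2-Ab1 and H2-Eb1 were 3.39-fold and 3.48-fold higher.

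Cholesterol synthesis was the most uniform metabolic list. Of 23 genes, 21 were higher in ATII cells and 2, Hsd17b7 and Sc5d, were not called, with a median log2 change of 1.35. Hmgcs1, the synthase at the head of the pathway, had levels of 5.41, 5.74, 5.66 and 5.65 in ATII cells and 3.49, 3.71 and 3.44 in fibroblasts (4.18-fold higher, adjusted p = 7.29e-08), and Fdps, which makes farnesyl diphosphate, had 6.51, 6.57, 6.57 and 6.79 in ATII cells and 4.51, 4.50 and 4.43 in fibroblasts. Both were narrow within groups. Fatty acid and phospholipid genes were higher in 12 of 23 and lower in 2 (median 0.44), with the desaturase gene Scd2 3.84-fold and the acyl-CoA synthetase gene Acsl3 3.88-fold higher.

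Amino acid stress genes, targets of the factor ATF4, were higher in 16 of 26 and lower in 1 (median 0.88). Trib3, a pseudokinase gene of this response, was 6.24-fold, the cationic amino acid transporter gene Slc7a3 15.2-fold and Ddit4, an inhibitor of mTOR signalling, 5.36-fold higher in ATII cells, while Gdf15, a stress cytokine gene, was 2.68-fold lower. Endoplasmic reticulum chaperones did not follow: 2 of 20 were called, Herpud1 (2.11-fold) and Xbp1 (log2 change 0.47), both higher. Antioxidant genes under NRF2 were lower in 13 of 23 and higher in 3 (median −0.69). Nqo1, a quinone reductase gene, was 15.96-fold and Gstm1, a glutathione transferase gene, 10.9-fold lower. Gpx2, the epithelial glutathione peroxidase gene, was 74.6-fold higher. Hmox1, the heme oxygenase gene, was called lower (log2 change −3.28) with 2.94, 5.93 and 3.71 in fibroblasts, and its call was lost without fibroblast replicate 2 (−2.41, adjusted p = 0.164), without replicate 4, and without ATII replicate 1, 3 or 5.

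Genes of energy metabolism had small median changes. In the respiratory chain 2 of 26 were higher and 1 lower (median −0.025). In glycolysis 2 of 19 were higher and 6 lower (median −0.20), a larger share lower than the 19.2% of genes with a symbol. In the list of metallothioneins, copper handling and amine oxidases 1 of 15 was higher and 5 lower. The amine oxidase genes Aoc3 and Maob, which unlike the lysyl oxidases are not matrix enzymes, were 10.8-fold and 7.72-fold lower in ATII cells, but the 2 array sequences of Aoc3 disagreed (log2 changes −3.43 and 0.31). The copper carrier gene Atox1 and the copper pump gene Atp7a were not called. In the cell cycle list 12 of 26 were lower and 14 not called (median −0.43). Mki67 had levels of 4.04, 3.49, 3.63 and 3.65 in ATII cells and 4.58, 4.41 and 4.62 in fibroblasts (1.78-fold lower, adjusted p = 0.0028), and Rrm2, Cdk1 and Birc5 fell by 0.92, 0.93 and 0.84 on the log2 scale. The call of Cdk1 was lost with the mean of its array sequences (−0.64, adjusted p = 0.0844).

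**Figure D4:**
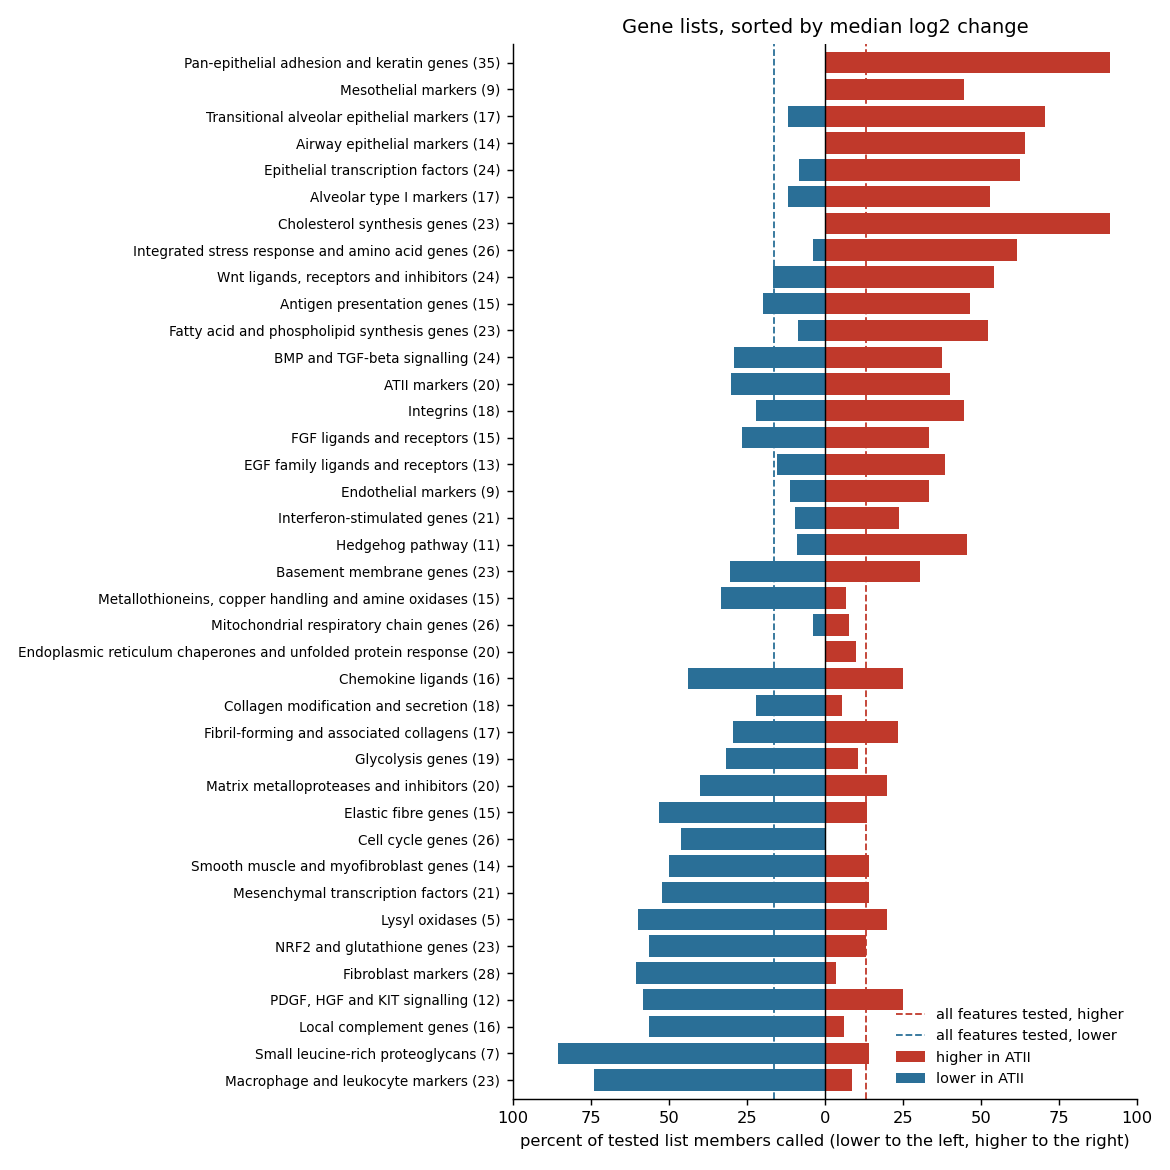
Percent of the tested members of each gene list (number in brackets) called higher in ATII cells (bars to the right) and lower (bars to the left), with dashed lines at the 13.2% and 16.2% of all tested features. Listed genes all have a symbol, and among tested genes with a symbol the shares were larger, 17.5% higher and 19.2% lower. Adhesion and keratin genes and cholesterol synthesis reach over 90% higher, and small leucine-rich proteoglycans and macrophage genes lie farthest on the lower side.

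The same cell type difference was measured in vehicle on 8 other arrays. The labels do not say whether vehicle and BAPN samples with one number came from one culture. There 10300 of the 32264 features were called (31.9%), and 6778 were called in both comparisons in the same direction, 71.4% of the BAPN calls and 65.8% of the vehicle calls. A further 42 were called in opposite directions. Log2 changes correlated across features with r = 0.865, as a description, since features of one array are not independent. The main model took the 15 arrays as independent samples. In fibroblast replicates 1, 2 and 4, Cxcl5 had 3.16, 0.21 and 4.14 with BAPN and 3.245, 0.84 and 4.03 with vehicle. Hmox1 had 5.93 with BAPN and 5.92 with vehicle in replicate 2, but 3.71 and 1.65 in replicate 4. The part of shared cultures in the overlap and in the correlation was not tested. The log2 change of Sftpc was 7.26 with BAPN and 7.74 with vehicle, that of Fgf10 −5.29 and −5.25, that of Krt7 8.46 and 8.47, and that of Ccn5 −7.96 and −8.26. Cholesterol synthesis had a median of 1.35 with BAPN and 1.22 with vehicle, with 20 genes called alike.

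Whether the cell type difference itself changed was tested as BAPN difference minus vehicle difference. A single feature of 32264 passed (0.0031%), and 4693 had an unadjusted p under 0.05. It was Pnliprp1, a pancreatic lipase-related gene, with −3.98, −3.96, −4.61 and −3.88 in ATII cells with BAPN, against −7.53, −7.71 and −7.33 in fibroblasts, at least 3.53-fold higher. On the measured signals, below background included, the log2 difference between cell types was 3.42 ± 0.25 (SE) with BAPN and 0.59 ± 0.23 (SE) with vehicle (difference 2.83, adjusted p = 0.0454). Mean levels were −4.11 with BAPN and −4.07 with vehicle in ATII cells, and −7.53 and −4.67 in fibroblasts. Pnliprp1 was well above background on 3 of 4 fibroblast vehicle arrays. Its difference was not called with the deposited table (2.55, adjusted p = 0.1), quantile normalization (2.55, 0.0963), normexp (0.64, 0.178), slide as a block (2.83, 0.0723), the replicate block across cell types (2.69, 0.412) or within them (2.76, 0.439), or slide 2 alone (2.83, 0.356). Without single arrays, its adjusted p was 0.0209 to 0.179. Next in order of adjusted p, none of them past the threshold, were Mia (1.52 with BAPN and 0.48 with vehicle), Mis18a (−0.90 and −0.07), Brca1 (−2.64 and −0.49, not well above background in ATII cells with BAPN) and Zyg11b (0.75 and −0.11). The 95% interval of the difference lay inside a 2-fold change in either direction for 48.2% of the features, so for the rest a change of that size is not resolved by these arrays.

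This count rests on single arrays. Without ATII replicate 4, the only ATII BAPN sample on slide 2, it was 910, and without fibroblast replicate 1, the only fibroblast BAPN sample on slide 1, it was 29. Of 17741 genes with a symbol, 122 were lower in ATII replicate 4 than in each other ATII BAPN array by 2 or more log2 units, against 3 or fewer for replicates 1, 3 and 5. On slide 1 alone it was 89. Cell cycle genes are an example of values that part without passing: 12 were called lower with BAPN and 1 of these also with vehicle (medians −0.43 and −0.15), and the difference of the contrasts was called for none of the 26 (adjusted p = 0.295 for Mki67).

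**Figure D5:**
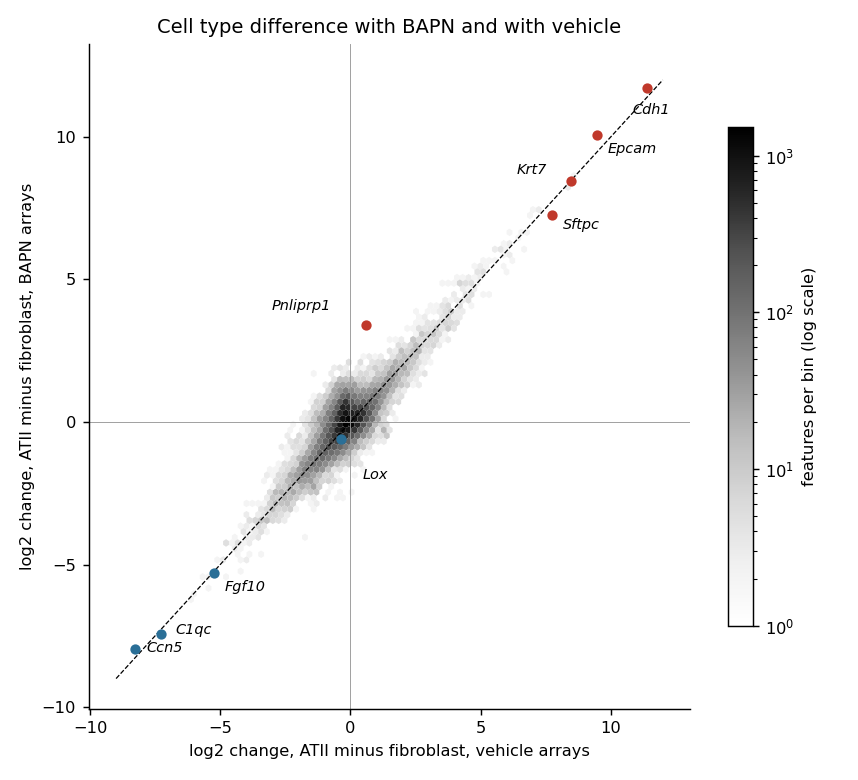
Log2 change of ATII cells minus fibroblasts with BAPN (vertical axis) against the same with vehicle (horizontal axis) for 32264 features, shaded by features per bin, with the line of equal change dashed. Named genes lie near the line except Pnliprp1, at 3.42 with BAPN and 0.59 with vehicle.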

How the data were processed

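For an array designed on mm9, the raw deposited data are one scanner output per array, whose spot intensity column (processed signal, background-subtracted and detrended but not normalized between arrays) came from Agilent's Feature Extraction software, version 10.7.3.1, per the file headers. Flags for signal over background, outliers and spot position are other deposited columns. The deposited series table holds log2 values whose columns share one distribution (medians 5.96), as after quantile normalization by the authors, and was an alternative.

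From these, log2 processed intensity minus each array's 75th percentile was computed. Outlier spots were left out and spots of one sequence averaged. Gene names came through accessions or symbols from a RefSeq table of GRCm38.p6 (31201 of 55212 array sequences named), and the brightest sequence stood for a gene. One model with 4 group means was fitted over the 15 arrays in limma 3.58.1 (R 4.3.3; 11 residual degrees of freedom), two-sided, with Benjamini-Hochberg adjustment over all features tested and a threshold of 0.05. Python 3.11.15 with pandas 2.3.3 and matplotlib 3.10.9 did the rest. SE is from the model and SD over arrays. The number of arrays limits the precision.

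The members, the 39 gene lists and the naming rule were chosen with earlier results of these data known, so the lists carry no test of their own. The rule picks the 8 largest changes each way among genes seen on all 7 arrays and the 7 largest bounds each way. It adds the 4 markers, the lysyl oxidases and up to 4 members of each list. The 5 genes of smallest adjusted p in the difference of contrasts complete it. Of the list members so picked, some are not given in the text. Other genes given with values are list members picked after their values were seen. For 20 alternatives (a fold minimum, the 7 arrays fitted alone, background, normalization, filter, slide, replicate block, spot position, array sequences, arrays left out), the effect is given at the end. A block of replicate number within each cell type was added after seeing the data.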

Additional observations from a re-analysis of the deposited data

Results flagged for a closer look

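Among the 173 genes picked by the naming rule, those below had 1 ATII BAPN sample set apart from the others by Dixon's criterion. Chance meets it in about 1 in 20 groups of samples, and the genes listed are near that share of the 173. Replicate 1 was high for Ripk4 (3.31, others 2.10 to 2.27), Itgb4 (3.11, others 1.86 to 2.05), Sox2 (−1.08, others −1.80 to −1.76) and Usp18 (0.94, others 0.33 to 0.42), and low for Gli1 (−4.05, others −3.10 to −2.94). Replicate 5 was low for C4bp (−7.56, others −6.08 to −5.89) and Fmod (−1.58, others −1.43 to −1.41). Replicate 3 was low for Fgf7 (0.42, others 0.88 to 0.95) and high for H2-Ab1 (0.88, others 0.42 to 0.47). Replicate 4 was low for Pnliprp1 (−4.61, others −3.98 to −3.88). C4bp was not well above background in any ATII sample, so its spread lies within background.

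The cell type difference of Pnliprp1 was larger with BAPN than with vehicle by 2.83 on the log2 scale, by a test of the difference itself (limma, adjusted p = 0.0454). Mean levels of Pnliprp1 with BAPN and with vehicle were −4.11 and −4.07 in ATII cells and −7.53 and −4.67 in fibroblasts. No fibroblast BAPN array had a signal well above background for it, so with BAPN the cell type difference has only a bound, at least 3.53-fold higher in ATII cells, and the 2.83 rests on measured signals that include background. The call was lost in several alternatives, for which values stand beside the comparison.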

How the results depend on the processing

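The BAPN comparison gave 9497 calls, and 7920 to 11442 with an array left out, the highest without ATII replicate 4. It gave 2583 calls on slide 2 alone (1103 higher, 1480 lower) and 4493 when a log2 change of at least 1 was required too (1844 higher, 2649 lower). The vehicle comparison gave 5299 calls on slide 2 alone (2219 higher, 3080 lower). The difference of the contrasts (1 call, 4693 features at an unadjusted p under 0.05) gave 0 calls with the deposited table, normexp, quantile normalization, slide as a block, the replicate block, slide 2 alone and features detected on all 7 arrays, 2 with no filter, 89 on slide 1 alone, and 0 to 910 with an array left out. Same-numbered samples are not stated to be paired. With the replicate block there were 6936 calls, and deviations correlated at 0.149 and 0.258 for the 2 same-numbered pairs, against 0.306 to 0.363 for other pairs on 1 slide. A block of number within each cell type, chosen after seeing the data, gave 0 calls in the difference of the contrasts (3311 at an unadjusted p under 0.05). The 6 same-numbered pairs of BAPN and vehicle samples, each on 1 slide, correlated at −0.145 to 0.265. Pairs of other numbers on 1 slide correlated at −0.27 to −0.15 in ATII cells and −0.40 to −0.30 in fibroblasts. Across slides, pairs of other numbers correlated at −0.10 to 0.30 in ATII cells and 0.01 to 0.31 in fibroblasts.

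Of 173 genes picked by the naming rule, 167 were called, and 119 of the 173 were on the same side of the threshold in every alternative that gave them a value. No called gene changed direction. On slide 2 alone 47 lost it and on slide 1 alone 16, with fewer arrays. Of 39 list medians, 7 with medians between −0.16 and 0.15 changed sign in some alternative: fibrillar collagens, collagen modification, basement membrane, chemokines, respiratory chain, metallothioneins and copper, and interferon-stimulated genes. Genes below background in one cell type have only a bound there, so signal over background limits their fold changes.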
